A study of Mus musculus with 18 samples.

Results

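The comparison described here set 3 arrays of axonal RNA from motoneurons with an shRNA against Smn beside 3 arrays of axonal RNA from untreated wild-type motoneurons. These are 6 of the 18 arrays of the series, taken by their labels. Each of 18191 genes was read by 1 probe set, the brightest of those that name only that gene, and 7754 of them lay above background on every array of at least 1 of both groups. Smn encodes the survival motor neuron protein, whose loss in humans causes spinal muscular atrophy, a disease of spinal motoneurons. The protein sits in a complex that loads Sm proteins onto the small nuclear RNAs of the spliceosome, and it is also found in axons together with messenger RNAs and RNA-binding proteins. Axons keep transcripts for ribosomal proteins, mitochondrial enzymes, the cytoskeleton and the presynaptic terminal at a distance from the nucleus, and such transcripts can be read from axons that grow alone into a separate chamber.

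Spinal motoneurons were taken from E12.5 mouse embryos and enriched by panning on the p75 neurotrophin receptor. They were grown for 7 days in microfluidic chambers, where 5 ng/ml of CNTF reached both chamber sides and 20 ng/ml of BDNF the axons alone. The knockdown group carried a lentivirus that expresses an shRNA against Smn, and the wild-type group received no virus. Virus and knockdown therefore cannot be told apart between these groups, and 3 axonal arrays with an empty lentiviral vector are given beside them. Somatodendritic RNA, from the chamber side with cell bodies and dendrites, was measured in the same 3 conditions on 9 further arrays. The RNA went through 2 rounds of linear amplification and was read on Affymetrix Mouse Genome 430 2.0 arrays. Whether replicate arrays stem from different cultures is not labelled, and the p-values below then measure the spread between arrays, which may be technical. The titles of the knockdown arrays follow another numbering scheme than those of the control arrays, and whether they were handled apart was not tested.

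Values are log2 signals as the authors deposited them, and differences are log2 differences with limma's standard error (SE). The background level of an array was taken from 145 probe sets of genes that belong to other tissues, as their 95th percentile. They were drawn from olfactory, vomeronasal and taste receptors, hair keratin-associated proteins and beta-defensins. The level lay between 6.45 and 6.75 on the wild-type arrays and between 7.01 and 7.28 on the knockdown arrays. On single arrays 8912 to 9971 genes exceeded it in wild-type axons, 7061 to 9956 with the empty vector and 6041 to 7312 with the knockdown. Correlations with the mean of the somatodendritic controls across genes were 0.814 to 0.891 for wild-type and 0.539 to 0.712 for knockdown arrays, lowest for knockdown replicate 1. The BioC and BioD spikes, RNAs added in fixed amount at hybridisation, read 13.02 to 13.35 in the wild-type and 13.69 to 13.93 in the knockdown group. Of the background probe sets themselves, 34 of 145 (23.4%) were higher on all 3 knockdown arrays than on all wild-type arrays and 9 were lower. The part of RNA amount and array scaling in the differences below was not tested, and fewer axons and less RNA per axon cannot be told apart in such samples.

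The labelled cell type was checked against defining markers. All 8 pan-neuronal markers lay above background on every wild-type array and 6 of 8 on every knockdown array. Of 10 motoneuron and cholinergic markers, 2 (Prph and Ngfr) did so in both groups, and 8 exceeded background on no knockdown array. Microglial and macrophage markers moved with single arrays: 7 of 12 lay above background on every wild-type array, 3 on every knockdown array and 1 on every empty vector array. Their mean level was 9.93 in wild-type replicate 1 and 8.93 in knockdown replicate 1, and between 6.58 and 7.49 on the other 4 arrays. Of 6 oligodendrocyte lineage markers, 3 (Olig1, Sox10 and Mbp) lay above background on every wild-type array and 1 (Olig1) on every knockdown array. Of 7 astrocyte and radial glia markers these were 1 (Fabp7) and 2 (Fabp7 and Sox9). Of 5 Schwann and neural crest markers these were 1 (Sox10) and 0. For fibroblast, endothelial and erythroid markers both counts were 0.

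Smn1, the target, was not measurable in axons. Its single probe set read 5.70, 5.54 and 5.72 on the wild-type arrays and 5.76, 5.23 and 4.96 on the knockdown arrays. All 6 values lie below the background of their arrays, and the groups overlap. The difference was -0.34 (SE 0.45, limma adjusted p = 0.721), so these arrays cannot show whether the transcript was lowered.

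At an adjusted p under 0.05, 18 of 18191 genes changed in axons (0.099% of genes): 17 fell (0.0935%) and 1 rose (0.0055%). All 17 that fell were above background on every wild-type array and on no knockdown array. In the somatodendritic compartment all 17 stayed above background on the 3 knockdown arrays. On the empty vector arrays each of the 17 was higher than on every knockdown array. A fold for these genes is a lower bound ("at least"), since it is taken against the background of the knockdown arrays or the gene's own signal there, whichever is higher.

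**Figure D1:**
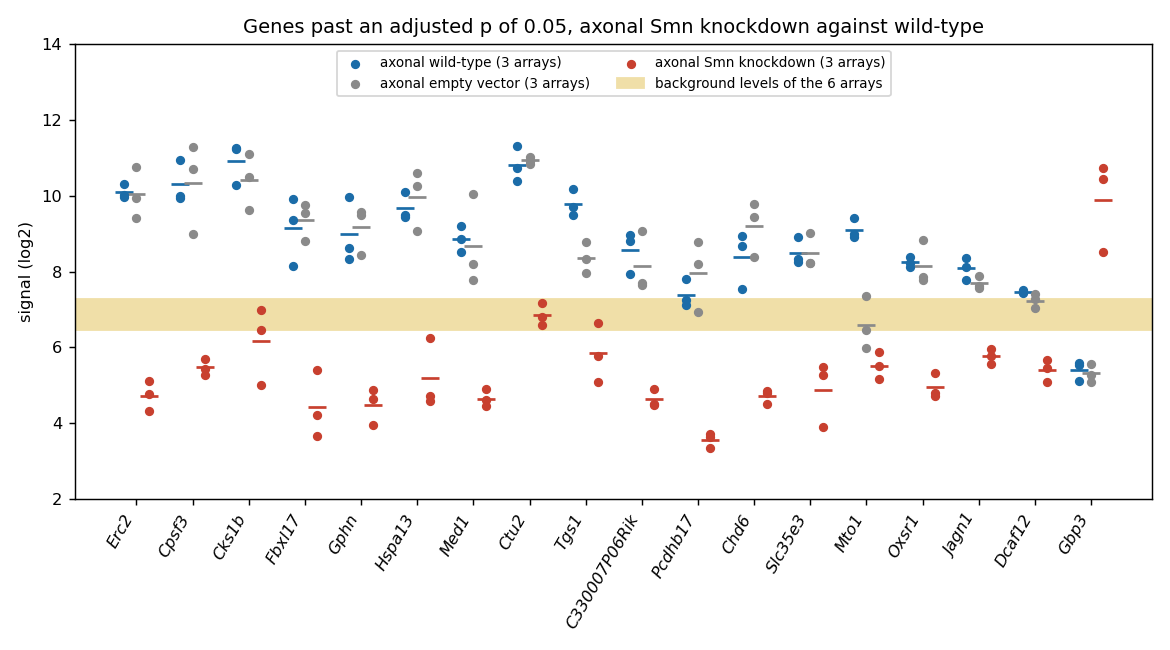
Log2 signal on each axonal array for the 18 genes past an adjusted p of 0.05, ordered by difference, with group means as dashes and the range of background levels of the 6 arrays shaded. For 17 genes the 3 knockdown arrays lie below every wild-type and empty vector array, and for Gbp3 they lie between 8.51 and 10.73 against at most 5.58 in the other groups.

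The genes that fell are described by their known roles. Erc2 encodes a scaffold of the presynaptic active zone, the site where vesicles fuse. It read 9.97, 10.31 and 10.02 on the wild-type arrays and 5.12, 4.31 and 4.76 on the knockdown arrays. The groups were nearly 5 log2 units apart at their nearest, and the empty vector arrays read 9.95, 9.42 and 10.76, around the wild-type range. Erc2 fell by 5.37 (SE 0.39, limma adjusted p = 0.0073), at least 7.61-fold. Gphn encodes gephyrin, which anchors glycine and GABA receptors at inhibitory synapses. Its wild-type values were 8.34, 8.62 and 9.97 and its knockdown values 3.95, 4.88 and 4.64. It fell by 4.49 (SE 0.52, limma adjusted p = 0.0371), at least 3.50-fold. A second probe set of Gphn was lower on all knockdown arrays too, while the remaining one, at 8.21, 7.85 and 7.35 in wild-type axons, read 9.83, 4.46 and 5.33 with the knockdown and overlapped. Pcdhb17, a clustered protocadherin of the cell surface, fell by 3.82 from values of 7.24, 7.81 and 7.11, close to background, which leaves a bound of only 1.16-fold.

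Cpsf3, the endonuclease that cuts pre-mRNA before polyadenylation, read 10.01, 9.93 and 10.95 in wild-type and 5.28, 5.71 and 5.44 in knockdown axons. It fell by 4.82 (SE 0.57, limma adjusted p = 0.0371), at least 8.72-fold, by a probe set that may read other genes, and a second of its 3 probe sets was also lower on all knockdown arrays (7.37 to 8.71 against 4.77 to 6.01). The remaining probe set was dim in wild-type and higher with the knockdown. Tgs1 encodes the methyltransferase that completes the cap of small nuclear RNAs after the SMN complex has assembled them. It read 9.71, 9.49 and 10.18 on wild-type, 7.96, 8.33 and 8.78 on empty vector and 5.78, 6.65 and 5.10 on knockdown arrays. The 3 groups do not overlap, with the empty vector between the others, and the fall between wild-type and knockdown was 3.95 (SE 0.43, limma adjusted p = 0.0371), at least 6.15-fold. The other Tgs1 probe sets, none above background on every wild-type array, overlapped between wild-type and knockdown, with differences of -0.62, -0.03, 0.51, -0.01 and 0.67. With all its probe sets averaged the Tgs1 difference was -0.57 and did not pass. Ctu2, an enzyme that adds sulphur to tRNAs, read 11.30, 10.39 and 10.73 in wild-type and 6.79, 7.17 and 6.59 in knockdown axons. It fell by 3.95 (SE 0.31, limma adjusted p = 0.0073), at least 12.4-fold, by a probe set that may read other genes. The other Ctu2 probe set gave a difference of -0.37, with 6.67 to 6.87 against 6.27 to 6.64. Mto1, which modifies mitochondrial tRNAs, fell by 3.58 (at least 3.81-fold). Its empty vector arrays, at 7.35, 5.98 and 6.47, were also low, and 1 of them was not above background.

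Of the regulators of transcription and chromatin, Med1, a subunit of Mediator, fell at least 3.20-fold (limma adjusted p = 0.0454), from 9.19, 8.51 and 8.85 to 4.46, 4.90 and 4.60. Another Med1 probe set above background in wild-type axons overlapped between the groups, at 7.49 to 8.13 against 6.91 to 8.27. Chd6, a chromatin remodelling ATPase, fell by 3.65 from 7.54, 8.94 and 8.66 to 4.86, 4.52 and 4.80. Genes of protein turnover and the cell cycle machinery included Cks1b, a small subunit of cyclin-dependent kinases, at 11.25, 10.28 and 11.24 in wild-type and 7.00, 6.47 and 5.00 in knockdown axons. This was the largest bound of the 17, at least 13.5-fold (log2 difference -4.77, SE 0.59, limma adjusted p = 0.0371). The Cks1b probe set used may read several transcripts. The other Cks1b probe set gave -2.45, was above background on 2 wild-type arrays and was lower on all knockdown arrays. Without the brighter probe set the gene did not pass. Fbxl17, which selects substrates for a ubiquitin ligase, fell by 4.71, at least 3.93-fold, and its second probe set was lower on all knockdown arrays too. Dcaf12, a substrate receptor of another ubiquitin ligase, fell by 2.06 from values of 7.45 to 7.52. A further Dcaf12 probe set, which exceeded background on 2 wild-type arrays, was higher on all knockdown arrays (difference 1.15).

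Among proteins of the endoplasmic reticulum and transport, Hspa13, an HSP70 relative in microsomes, read 9.50, 10.09 and 9.43 in wild-type and 4.59, 6.26 and 4.73 in knockdown axons, and fell at least 5.66-fold. Its other bright probe set overlapped, because knockdown replicate 1 read 9.26 there. Jagn1, a protein of the secretory pathway, fell by 2.31, and Slc35e3, of the nucleotide-sugar transporter family, by 3.61. Oxsr1, a kinase that phosphorylates cation-chloride cotransporters, fell by 3.30 from 8.23, 8.12 and 8.39 to 4.71, 5.34 and 4.79. C330007P06Rik, named as a clone, fell by 3.93. The limma adjusted p of these 5 genes lay between 0.0371 and 0.0454. Over the 18 genes, 12 had further probe sets, 27 in all. Of these 27, 6 were above background on every wild-type array, and 3 of the 6 were lower on all knockdown arrays while none was higher on all.

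These calls rest on few arrays. Without wild-type replicate 3 no gene passed, without wild-type replicate 2 it was 2 genes, and without wild-type replicate 1 it was 8. Without knockdown replicate 1 a single gene passed (Erc2), without replicate 3 it was 4, and without replicate 2 it was 116 (10 higher, 106 lower). With array weights, which let noisier arrays count less, 897 genes passed, 587 higher and 310 lower, so the balance of directions also turned with the fit. Over the 6 settings with 1 array left out the Erc2 difference stayed between -5.56 and -5.16 and its adjusted p between 0.0085 and 0.0795. The unadjusted p was under 0.05 for 3803 genes (20.9%), 2342 higher (12.9%) and 1461 lower (8.03%).

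In the cell body compartment 9 of the 17 genes also fell and 1 (Slc35e3, by 0.78) rose, where 36% of all genes passed, 20.4% lower and 15.6% higher. The knockdown effect differed between the compartments for 1946 genes (10.7%) in a fit to all 18 arrays, and in 1343 (7.38%) the effect was higher and in 603 (3.31%) lower in axons. The 17 genes were all among the 603, which is a description, since they were called on axonal arrays that also enter this fit. For Ctu2 the somatodendritic means were 10.57 in wild-type and 10.56 with the knockdown, and the axonal effect minus the somatodendritic was -3.95 (SE 0.32, limma adjusted p = 2.2e-05). For Erc2 the somatodendritic difference was -1.92 and the axonal effect minus it was -3.45. For Gphn the somatodendritic difference was -1.98, and the axonal effect minus it was -2.50 (limma adjusted p = 0.0107). The 18 arrays share 1 estimate of spread although the axonal arrays vary more. With arrays weighted by compartment, 1495 genes differed, 798 higher and 697 lower, so the split was nearer to even, and all 17 remained among those lower.

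Gbp3 was the gene that rose. It encodes a guanylate-binding protein, a GTPase induced by interferon that acts against intracellular pathogens. Its values were 5.11, 5.58 and 5.53 in wild-type axons, 5.28, 5.10 and 5.57 with the empty vector and 10.73, 8.51 and 10.45 with the knockdown. Both control groups were below background on every array and all knockdown arrays were above it. The difference was 4.49 (SE 0.54, limma adjusted p = 0.0371), at least 9.90-fold. Leaving out any array but knockdown replicate 2 moved its adjusted p above the threshold (0.0652 to 0.183), with differences from 4.08 to 5.18 over the 6 settings.

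Interferons are cytokines that switch on antiviral genes, and many promoters of such genes carry a repeated element. The letters searched were GAAA, any 2 bases and GAAA again, or on the other strand TTTC, any 2 bases and TTTC. They were looked for from 250 bases before to 50 after each annotated start (RefSeq, GRCm38.p6). The element occurred in 1079 of 27025 genes (3.99%) and in 18 of the 32 interferon-list genes with a promoter in the table (56.2%). For genes with several annotated starts, any start with the element counted, and such a start was preferred for display. The 150 bases before the start are shown for 4 members with large axonal differences, chosen after their values were seen, with matches in capitals. They are Gbp3 (chr3:142559894-142560043, + strand), Rsad2 (chr12:26456453-26456602, - strand), Ifit1 (chr19:34640739-34640888, + strand) and Ifi35 (chr11:101448262-101448411, + strand).
Gbp3: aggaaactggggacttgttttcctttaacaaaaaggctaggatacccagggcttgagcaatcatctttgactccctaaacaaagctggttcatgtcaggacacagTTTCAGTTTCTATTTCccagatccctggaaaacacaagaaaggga
Rsad2: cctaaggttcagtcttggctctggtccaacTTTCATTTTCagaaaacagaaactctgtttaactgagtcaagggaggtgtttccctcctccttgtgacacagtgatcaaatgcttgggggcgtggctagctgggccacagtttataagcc
Ifit1: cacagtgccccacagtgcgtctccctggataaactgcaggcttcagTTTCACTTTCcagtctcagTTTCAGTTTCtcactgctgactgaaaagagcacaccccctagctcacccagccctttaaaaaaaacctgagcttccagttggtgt
Ifi35: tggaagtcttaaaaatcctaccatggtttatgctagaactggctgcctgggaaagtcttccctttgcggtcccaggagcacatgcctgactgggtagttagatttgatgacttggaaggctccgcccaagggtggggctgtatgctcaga
Gbp3 holds 2 overlapping matches, Rsad2 1 and Ifit1 2, and in this window Ifi35 holds none. Of the 11 list members with a promoter that were higher at an unadjusted p under 0.05, 6 held the element between 250 bases before and 50 after the start.

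Across the list of interferon-induced and antigen presentation genes, 44 were measured, 1 was called in axons (Gbp3, against 0.0055% of genes called higher) and 15 were higher at an unadjusted p under 0.05 (12.9% of all genes). The arrays did not overlap for 12 of the 44 (27.3%), all higher, where 18.8% of all genes were higher and 9.96% lower. The list's median somatodendritic wild-type level was 5.90. Of the 6721 genes below 6 in that compartment, 26.1% were higher and 4.57% lower, so the count of 12 was near their share. The median difference of the list was 0.78, beside 0.23 for those 6721 genes and 0.03 over all genes. It was -0.13 for the empty vector against wild-type. Rsad2, the antiviral enzyme viperin, read 6.55, 6.65 and 6.78 on wild-type and 13.19, 10.74 and 9.33 on knockdown arrays. Its knockdown values were spread over nearly 4 log2 units, and its difference of 4.43 (SE 0.82) missed the threshold (limma adjusted p = 0.0595). Rtp4, a receptor transporter induced by interferon, read 10.72, 7.77 and 9.56 with the knockdown and at most 5.72 in wild-type (difference 3.87, limma adjusted p = 0.0593). Usp18, which removes the ubiquitin-like ISG15 from proteins, read 9.04, 8.75 and 6.78, the last below background (difference 3.44, limma adjusted p = 0.0593). Ifi35 had the highest difference of the list, 5.28 (SE 1.40, limma adjusted p = 0.0919), with 12.73, 9.38 and 9.63 against 7.52, 3.95 and 4.41. Over the alternative fits the Ifi35 difference ranged from 1.52 to 6.40. Irf7, the transcription factor that amplifies the response, read 9.63, 8.09 and 8.19 against 6.94, 6.48 and 6.36 (difference 2.05, limma adjusted p = 0.0681).

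In the cell bodies 39 of the same 44 genes rose, where 15.6% of all genes did, with a median difference of 2.39. Of the 44, 37 had a smaller difference in axons than in cell bodies. The knockdown effect was lower in axons for 17 members and higher for 1, where 3.31% of all genes were lower and 7.38% higher. The higher member was Irf7 (axonal minus somatodendritic 1.91, limma adjusted p = 0.0178). For Gbp3 the effects were 4.49 in axons and 5.29 in cell bodies, and their difference missed the threshold (limma adjusted p = 0.423). Above background on every knockdown array were 12 members in axons and 37 in cell bodies, and 15 exceeded background on no axonal knockdown array. Ifit1, which binds viral RNA, was above background on 2 of 3: its axonal knockdown values were 5.40, 7.44 and 9.94, while its somatodendritic mean was 11.86. For 30 of the 44 genes the highest axonal knockdown value came from replicate 1, the array with the highest microglial marker level of that group. Without that array the list median was 0.56. After a shift of each array to equal medians of detected genes the list median was 0.28. Without overlap 7 members were then higher and 5 lower, where 6.4% of all genes were higher and 26.3% lower. The part of other cells in the axonal values was not tested.

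**Figure D2:**
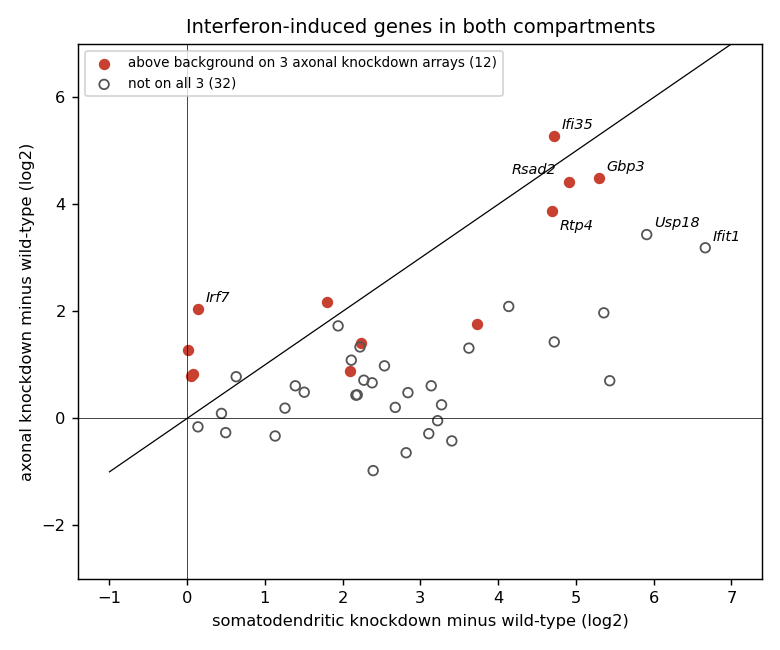
Knockdown minus wild-type difference (log2) of 44 interferon-induced genes in axons (vertical) against cell bodies (horizontal), with the line of equal effects; filled points were above background on all 3 axonal knockdown arrays. Most points lie below the line, Gbp3, Rsad2, Rtp4 and Ifi35 lie near it, and Irf7 lies above it.

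Apart from Gbp3, the higher genes named by lowest p did not pass. Pfdn1, a subunit of the prefoldin chaperone, read 8.57, 7.91 and 7.55 in wild-type, 7.90, 7.58 and 7.68 with the empty vector and 10.68, 10.61 and 10.08 with the knockdown. No value of the control groups comes within 1 log2 unit of the knockdown values, yet the difference of 2.45 (SE 0.33) had a limma adjusted p of 0.0562. Sema3f, a secreted guidance cue, read 8.29, 7.62 and 7.89 against 9.97, 9.78 and 9.60 (difference 1.85, limma adjusted p = 0.0582), with a somatodendritic difference of 0.08. Stat3, the transcription factor downstream of the CNTF receptor, read 7.95, 7.84 and 8.34 against 10.50, 10.25 and 9.71 (difference 2.11). S1pr2, a receptor for sphingosine 1-phosphate, read 8.10, 7.75 and 7.51 against 10.24, 9.50 and 9.72. Its difference was 2.03, but only 0.06 in an alternative fit. Col16a1, Tmem198 and Slc45a1 were also above background in both groups, with differences of 1.69, 2.24 and 1.58. Rabl3, Mc1r, Pbx2 and Myh4 were dim in wild-type axons and in knockdown cell bodies, with axonal differences between 1.53 and 1.87. For Rabl3 and Pbx2 the direction depended on the probe set, with -0.36 and -0.78 when probe sets that may read several transcripts or genes were left out. Each of these 9 genes from Stat3 to Myh4 had a limma adjusted p of 0.0593.

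The number of genes detected differed more than the number of calls. Above background on every array were 7197 genes in wild-type, 5594 with the empty vector and 4038 with the knockdown, and 3481 in both wild-type and knockdown axons. In all 3 wild-type arrays and no knockdown array there were 789 genes, against 87 for the empty vector in place of the knockdown. Of these 789, 763 (96.7%) were above background on all somatodendritic knockdown arrays, and 255 on all empty vector arrays. The reverse pattern held for 52 genes, 3 of which were above background in the knockdown cell bodies, and for 9 with the empty vector. Background levels were higher on the knockdown arrays. With 1 common level, the highest of the 6, the counts were 4590 for wild-type, 3756 for knockdown, 342 for wild-type only and 481 for knockdown only, so the ratio of the last pair turns with this choice. Large examples among the 789, chosen after their values were seen, were Tbk1, a kinase of innate immune signalling, and Unc13c, a vesicle priming protein. Tbk1 read 10.36, 10.55 and 10.09 in wild-type, 8.71, 11.22 and 9.78 with the empty vector and 5.67, 6.68 and 4.84 with the knockdown (difference -4.60, limma adjusted p = 0.0582). Unc13c was low with the knockdown (4.97 to 5.71) and also on 2 of 3 empty vector arrays (5.00, 4.94 and 8.21).

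**Figure D3:**
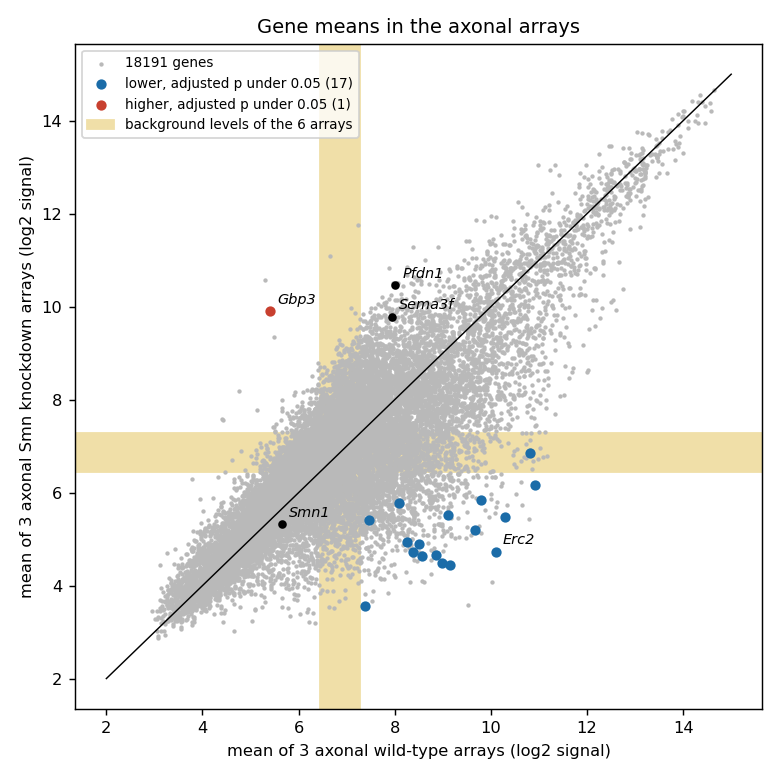
Mean log2 signal of 18191 genes on 3 axonal wild-type arrays (horizontal) and 3 axonal knockdown arrays (vertical), with the line of equality and the background range of the 6 arrays shaded on both axes; coloured points passed an adjusted p of 0.05. The 17 genes that fell lie at wild-type means of 7.39 to 10.92 and knockdown means within or below the background range, Gbp3 lies at the upper left, and Smn1 lies below background on both axes.

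The difference varied with the level of a gene in the cell bodies. Genes were binned by their somatodendritic wild-type signal, which comes from arrays outside the axonal comparison. Below 6 (6721 genes) the median axonal difference was 0.23, and 26.1% of genes were higher on all knockdown arrays against 4.57% lower. Between 8 and 10 (3725 genes) the median was -0.59, with 6.09% higher and 16.9% lower. Between 10 and 12 (1902 genes) it was -1.02, with 3.58% higher and 20.7% lower. At 12 or more (525 genes) the median was -0.36, so the decline did not go on to the brightest genes. The empty vector medians in the 5 bins lay between -0.13 and 0.07. Of the 17 genes that fell, 8 were in the bin from 8 to 10, 8 in that from 10 to 12 and 1 above. Over all genes the non-overlapping arrays were 3418 higher and 1812 lower (65.4% higher). When each array was shifted so that genes above background on all 9 axonal arrays had the same median, they were 1172 higher and 4784 lower (19.7% higher), and the median of all genes was -0.47.

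**Figure D4:**
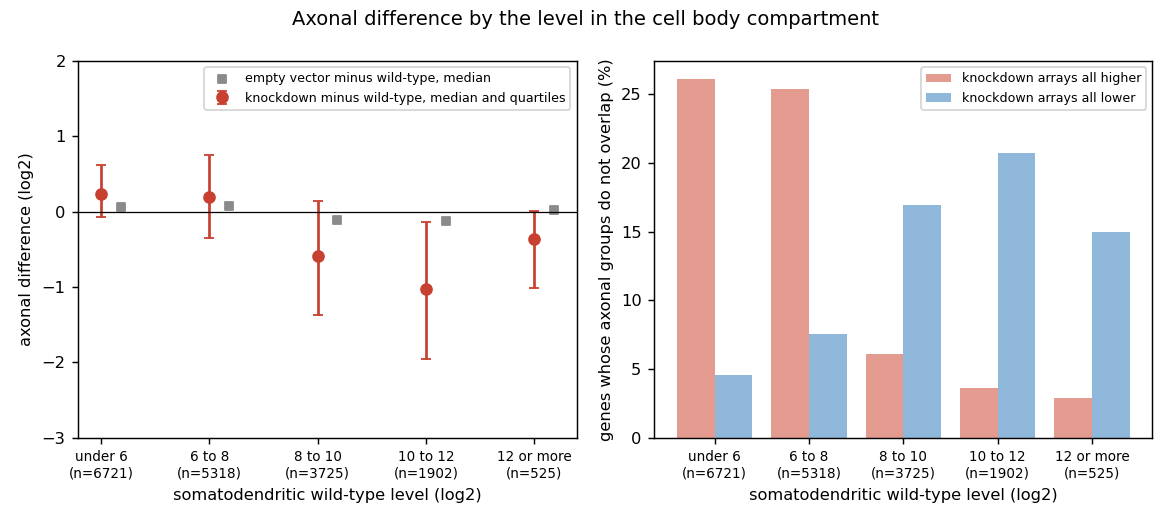
Left, median and quartiles of the axonal knockdown minus wild-type difference (log2) in 5 bins of somatodendritic wild-type level, with the empty vector minus wild-type median as squares; right, percentage of genes whose knockdown arrays are all above or all below the wild-type arrays. The median goes from 0.23 in the lowest bin to -1.02 in the fourth and -0.36 in the fifth, while the empty vector medians stay between -0.13 and 0.07.

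The presynaptic list, of active zone and vesicle proteins, held 51 measured genes, of which 38 were above background in every wild-type array and 21 in every knockdown array. Erc2 was its only call. Without overlap 10 members (19.6%) were lower and 4 (7.8%) higher, where 9.96% of all genes were lower and 18.8% higher. After the shift to equal medians the list held 14 lower and 0 higher, with all genes at 26.3% lower and 6.4% higher. The list median was -0.68, near the -0.59 of all genes in the bin of its median somatodendritic level (9.04), and 0.11 with the empty vector. Pclo, the large active zone scaffold piccolo, read 7.67, 8.55 and 8.96 against 5.33, 5.76 and 5.43 (difference -2.89, limma adjusted p = 0.0593). Syn3, a synapsin of the vesicle surface, read 9.31, 8.89 and 11.21 against 4.11, 7.79 and 3.49, with knockdown replicate 2 well above the others. Synj1, the phosphatase synaptojanin, and Napb, which takes SNARE complexes apart, had differences of -2.46 and -2.06. The knockdown effect was lower in axons for 7 members and higher for none, where 3.31% of all genes were lower.

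Postsynaptic receptors and scaffolds (29 measured) had a median of -0.85. Without overlap 6 were lower (20.7%) and 2 higher (6.9%), where 9.96% and 18.8% of all genes were. After the shift 10 were lower (34.5%) and 2 higher (6.9%), where 26.3% and 6.4% of all genes were. Above background on every array were 18 in wild-type and 4 with the knockdown, and Gphn was the only call. Dlg1, a scaffold of the PSD95 family, read 8.69, 9.79 and 9.09 against 4.64, 7.67 and 5.99. Homer1, which links metabotropic glutamate receptors to calcium stores, read 9.72, 10.48 and 8.92 against 7.28, 6.80 and 8.26. Gria4, an AMPA receptor subunit, differed by -1.98. Shank1 was dim in wild-type and higher with the knockdown (difference 1.28). Voltage-gated channels (27 measured) had a median of -0.88 and 4 lower (14.8%) against 2 higher (7.4%). After the shift 6 channels were lower (22.2%) and 0 higher, where 26.3% and 6.4% of all genes were. By median somatodendritic level (8.95 and 8.59) the postsynaptic and channel lists fall in the bin from 8 to 10. Before the shift its median was -0.59, with 16.9% lower and 6.09% higher. Scn3b, a sodium channel beta subunit, read 9.30, 11.07 and 10.04 against 5.15, 7.26 and 4.99. Scn2b, another, differed by -2.15, but by only -0.10 in an alternative fit.

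Of axon growth and guidance genes (60 measured), 11 were higher (18.3%) and 4 lower (6.7%) without overlap, near the 18.8% and 9.96% of all genes, and the median was -0.06 where the bin of their median level had -0.59. Slit1, a secreted repellent, read 7.69, 7.09 and 6.91 against 9.54, 9.06 and 8.96. Efnb1, a ligand of Eph receptors, read 6.77, 7.09 and 7.12 against 9.51, 8.29 and 8.68. Slit1 and Efnb1 had differences of 1.96 and 1.83 (limma adjusted p = 0.0655 and 0.0695). Sema6d, a membrane-bound semaphorin, lay at the other end with 7.46, 9.59 and 9.62 against 6.38, 5.73 and 6.45 (difference -2.70, limma adjusted p = 0.0802). The knockdown effect was higher in axons for 7 members of this list, Sema3f, Slit1 and Efnb1 among them, and lower for 1, where 7.38% and 3.31% of all genes were. Under the scaling to equal medians, 5 members were higher (8.3%) and 11 lower (18.3%) without overlap, where 6.4% and 26.3% of all genes were.

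The counts of separated members in the cytoskeletal lists depended on scaling. Microtubule and neurofilament genes (33 measured) had a median of -0.36, with 4 lower (12.1%) and 2 higher (6.1%), where 9.96% and 18.8% of all genes were. Nefm, the middle neurofilament subunit, read 9.11, 8.29 and 8.01 against 4.81, 7.27 and 4.53, so that knockdown replicate 2 stayed near the wild-type arrays. Prph, the peripheral neuron filament protein peripherin, was higher on all knockdown arrays at 9.54, 8.98 and 8.38 against 7.95, 7.38 and 7.57. The Prph difference was 1.33, but only 0.05 in an alternative fit. Map6, which stabilises microtubules, and Kif2a, a kinesin that depolymerises them, differed by -1.98 and -2.88. Actin cytoskeleton genes (37 measured) had a median of -0.40 with 5 lower (13.5%) and 2 higher (5.4%), and motor proteins (32 measured) one of -0.23 with 3 lower (9.4%) and 4 higher. After the shift to equal medians, 10 genes of the microtubule list were lower (30.3%) and 0 higher. Of the actin list 14 were lower (37.8%) and 2 higher, and 9 motor proteins were lower (28.1%) and 1 higher. Of all genes 26.3% were then lower and 6.4% higher. By median somatodendritic level the microtubule and actin lists fall in the bin from 10 to 12. Before the shift its median was -1.02, with 20.7% lower and 3.58% higher. Motor proteins fall in the bin from 8 to 10, with -0.59, 16.9% lower and 6.09% higher. No gene of the 3 lists passed the test.

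Transcripts of cytosolic ribosomal proteins stayed detectable with the knockdown. Of 44 measured, 43 were above background on every wild-type and 39 on every knockdown array, 24 were higher (54.5%) and 3 lower (6.8%) without overlap, where 18.8% and 9.96% of all genes were, and none passed the test. The median difference was 0.24, whereas the 1902 genes of the bin that holds their median somatodendritic level (11.35) had -1.02. Each other gene list placed in that bin also had a median above -1.02. These ran from -0.82 for axonal RNA-binding proteins to 0.05 for nuclear-retained long noncoding RNAs. A median above the bin is therefore not particular to the ribosomal list. Among genes above background in both groups the list median was 0.28 beside 0.37 for all 3481 such genes, of which 32.2% were higher and 4.37% lower without overlap. Rps19 read 11.73, 11.05 and 10.92 against 12.84, 12.88 and 13.09 (difference 1.70, limma adjusted p = 0.0656). Fau, which encodes a ubiquitin-like protein fused to ribosomal protein S30, read 11.15, 9.90 and 10.87 against 12.40, 11.96 and 12.06. Rps27 differed by 1.21. Rps9 and Rps10 differed by 1.82 and 1.73, but by -0.70 and -0.61 when probe sets that may read several transcripts or genes were left out. The sign of the list depended on scaling. After the shift to equal medians its median was -0.27, with 7 members higher (15.9%) and 17 lower (38.6%). Of all genes 6.4% were then higher and 26.3% lower.

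Oxidative phosphorylation genes (71 measured) also stayed detectable: 68 were above background on every wild-type and 67 on every knockdown array. Their median was 0.02, beside -1.02 for the same bin. Without overlap 15 were higher (21.1%) and 5 lower (7%), near the 18.8% and 9.96% of all genes. Among the 66 members above background in both groups the median was 0.03, below the 0.37 of all 3481 such genes. Of these 66, 13 were higher and 5 lower without overlap, where 32.2% and 4.37% of the 3481 were. Cox8a, a subunit of cytochrome c oxidase, read 10.03, 9.27 and 9.25 against 10.99, 10.88 and 10.96 (difference 1.43, limma adjusted p = 0.0684). Atp5o and Atp5e, subunits of ATP synthase, differed by 1.05 and 1.16. After the shift to equal medians 4 members were higher (5.6%) and 30 lower (42.3%), where 6.4% and 26.3% of all genes were.

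Translation factors (38 measured), which load and move ribosomes on mRNA, had a median of -0.39. Without overlap 6 were lower (15.8%) and 4 higher (10.5%), where 9.96% and 18.8% of all genes were. After the shift 18 were lower (47.4%) and 1 higher (2.6%), where 26.3% and 6.4% of all genes were. Eif4e, the cap-binding protein, read 10.23, 9.06 and 8.67 in wild-type and 7.00, 5.66 and 6.14 with the knockdown (difference -3.05, limma adjusted p = 0.0593). Eif2s3x, a subunit of the factor that delivers the initiator tRNA, differed by -1.82. It differed by 0.19 when probe sets that may read several transcripts or genes were left out. Eif3b differed by -1.37, and Eif3k, of the same initiation complex, by 1.03. Axonal RNA-binding proteins (28 measured) had a median of -0.82, with 4 lower (14.3%) and none higher, and 12 lower (42.9%) and none higher after the shift. Above background were 21 on every wild-type and 9 on every knockdown array. By median somatodendritic level (10.05 and 10.01) the translation factors and these proteins fall in the bin from 10 to 12. Before the shift that bin had a median of -1.02, with 20.7% lower and 3.58% higher. By these values neither list fell more than its bin. Stau1, a double-stranded RNA-binding protein of transport granules, read 8.13, 8.65 and 7.03 against 5.42, 6.14 and 6.45. Sfpq, a splicing factor that also acts in axons, differed by -2.07 with overlapping arrays.

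The SMN complex and snRNP assembly list (20 measured) had a median of -0.04, with 3 lower and 3 higher without overlap (15% each, where 9.96% and 18.8% of all genes were) and no call. After the shift 6 were lower (30%) and 0 higher, where 26.3% and 6.4% of all genes were. Strap, a WD-repeat protein known as unrip that binds the SMN complex, read 10.32, 10.44 and 10.53 in wild-type, at least 9.74 with the empty vector and 6.45, 8.60 and 7.70 with the knockdown. Its difference was -2.85 (SE 0.49, limma adjusted p = 0.0593), and the axonal effect was lower than the somatodendritic (-2.52, limma adjusted p = 0.0074). Snrpg, an Sm core protein, read 11.96, 12.17 and 11.95 against 12.66, 12.59 and 12.95, a difference of 0.71. Snrpf, another, differed by 1.35. Spliceosome and splicing regulators (40 measured) had a median of -0.38 with 8 lower (20%) and 4 higher (10%), or 14 (35%) and 2 (5%) after the shift. Their median somatodendritic level (10.35) falls in the bin from 10 to 12. Before the shift its median was -1.02, with 20.7% lower and 3.58% higher. Srsf11, a serine- and arginine-rich splicing factor, read 8.01, 9.52 and 8.89 against 3.00, 5.34 and 6.08. Rbfox1, a neuronal splicing regulator, differed by -2.46.

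Ubiquitin and conjugating enzymes (29 measured) had a median of -0.37 and 1 call (Fbxl17, where 0.0935% of all genes were called lower). Without overlap 7 were lower (24.1%) and 1 higher (3.4%), where 9.96% and 18.8% of all genes were. After the shift 12 were lower (41.4%) and 1 higher (3.4%), where 26.3% and 6.4% of all genes were. Ube2h, a conjugating enzyme, read 9.56, 9.35 and 10.97 against 5.54, 6.57 and 4.30 (difference -4.49, limma adjusted p = 0.0582). Ube2d3, another, differed by -3.20. The differences smallest in size over the alternative fits were -0.89 for Ube2h and -0.04 for Ube2d3. The list of cytosolic chaperones (36 measured) also held Hspa13, of microsomes, which was its only call. The list median was -0.39, with 8 lower (22.2%) and 2 higher (5.6%), or 18 (50%) and 1 (2.8%) after the shift. By median somatodendritic level (10.53 and 11.47) the ubiquitin and chaperone lists fall in the bin from 10 to 12. Before the shift its median was -1.02, with 20.7% lower and 3.58% higher. Hspa1b, an inducible HSP70, read 8.86, 9.84 and 9.73 against 5.47, 7.51 and 5.66. Dnajb1, an HSP40 partner, read 10.67, 10.86 and 12.02 against 8.09, 7.85 and 9.45, above background throughout (difference -2.72, limma adjusted p = 0.0616). Pfdn1 lay at the other end of the same list.

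Receptors and signalling proteins for BDNF, CNTF and GDNF (15 measured) had a median of -1.18. Without overlap 5 were lower (33.3%) and 4 higher (26.7%), where 9.96% and 18.8% of all genes were. After the shift 5 were lower (33.3%) and 2 higher (13.3%), where 26.3% and 6.4% of all genes were. Ret, the GDNF receptor kinase, read 5.22, 8.06 and 8.52 in wild-type and 3.44, 4.96 and 4.54 with the knockdown, where the first wild-type value was itself below background. Jak1, a kinase bound to the CNTF receptor, differed by -1.65, whereas Cntfr, the receptor subunit that binds CNTF, differed by 0.78 with 7.09, 7.08 and 7.52 against 8.45, 7.85 and 7.73. Among immediate early genes (16 measured, median -0.09), Jun read 9.34, 8.39 and 9.19 against 5.96, 4.05 and 5.96 (difference -3.65, limma adjusted p = 0.0599). Ier2 was higher on all knockdown arrays (difference 2.04). Rab GTPases (39 measured) had a median of -0.26 with 8 lower (20.5%) and 3 higher (7.7%), or 13 (33.3%) and 1 (2.6%) after the shift. By median somatodendritic level (9.34 and 9.92) the receptor and Rab lists fall in the bin from 8 to 10. Before the shift its median was -0.59, with 16.9% lower and 6.09% higher. Rab2a, which acts between the endoplasmic reticulum and the Golgi, read at least 10.15 in wild-type and 6.33, 8.73 and 5.64 with the knockdown.

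**Figure D5:**
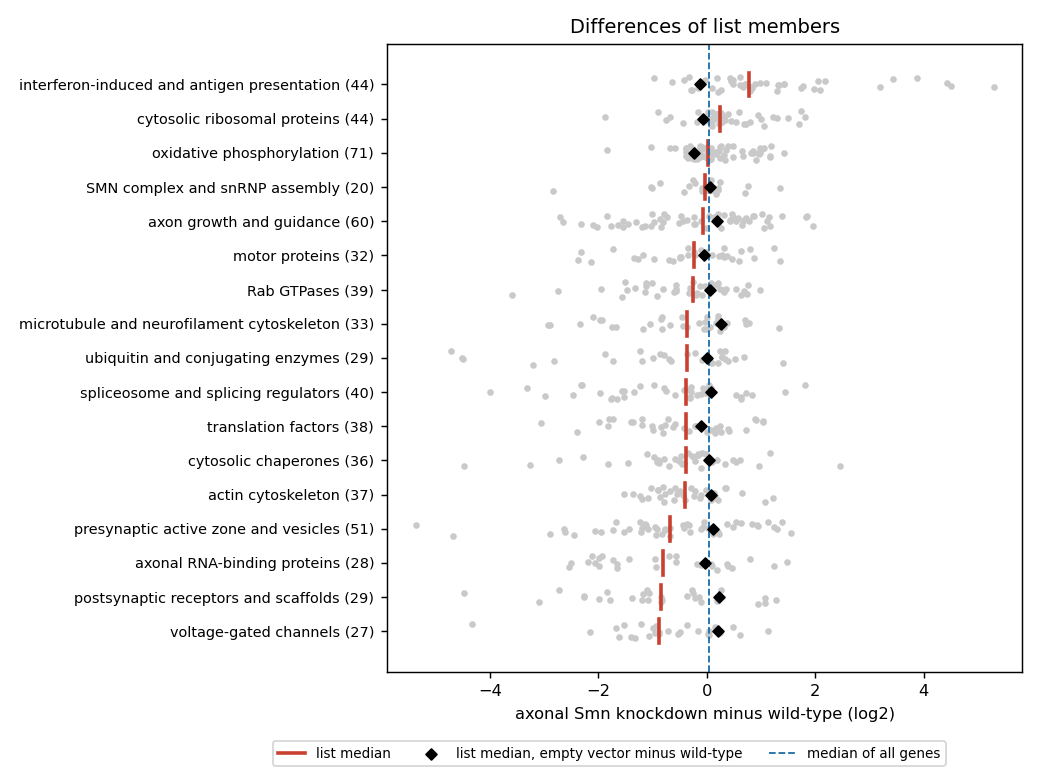
Axonal knockdown minus wild-type difference (log2) of each member of 17 gene lists, with the list median (bar), the median for empty vector minus wild-type (diamond) and the median of all genes (0.03, dashed line). Among the 17 lists shown, medians run from 0.78 for interferon-induced genes to -0.88 for voltage-gated channels, and the empty vector medians lie between -0.23 and 0.25. The list of receptors for BDNF, CNTF and GDNF, with a median of -1.18, is not shown.

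The empty vector arrays set the scale for virus without the hairpin. Against wild-type 0 of 18191 genes (0%) passed in limma (603 genes at an unadjusted p under 0.05, 3.31%), in any of the 9 alternative fits run. Without overlap 781 genes (4.29%) were higher and 826 (4.54%) lower. Knockdown against empty vector gave 32 calls (0.176%), 3 higher (0.0165%) and 29 lower (0.159%). These comparisons share arrays with that of knockdown and wild-type, so their values are given side by side and not as independent support. For Erc2 the difference was -0.06 between empty vector and wild-type and -5.31 between knockdown and empty vector. For Gphn it was -4.68 between knockdown and empty vector. For Mto1 the empty vector itself differed from wild-type by -2.50 (limma adjusted p = 0.634).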

How the data were processed

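Values were log2 signals as the authors deposited them, 45101 probe sets on each array. After sorting, the axonal arrays differed by at most 0.0125 and the somatodendritic ones by at most 0.0048, so each compartment had been brought to a common distribution of its own. Software and steps behind them are not given in the sources used here. Probe sets were named with the platform annotation: 34958 named 1 gene, 932 several and 9211 none. Left out were 64 control probe sets and 11 lacking a value on the 3 axonal knockdown arrays. Differences were fitted with limma 3.58.1 (lmFit, eBayes) in R 4.3.3, on the 9 axonal arrays, or on all 18 for effects between compartments, with Benjamini-Hochberg adjustment over 18191 genes and a threshold of 0.05. The fit was tested on simulated data. Only 3 arrays per group limit the precision.

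A group counted as above background when all its arrays exceeded the level. Of 9 correlations between deviations of axonal arrays with the same number in their titles, 0 exceeded 0.1 (-0.19 to 0.08). No pairing by number was seen between the axonal groups, but so few arrays per group cannot exclude it. Whether axonal and somatodendritic arrays stem from the same cultures, which bears on the effects between compartments, was not tested. Genes named were those called, up to 12 per direction with clone names skipped, filled by lowest p among non-overlapping genes, Smn1, and up to 5 members of lowest p per list. Oxsr1, Mto1, Jagn1, Dcaf12, C330007P06Rik, Ifit1, Ifi35, Snrpf, Scn2b, Tbk1 and Unc13c were added after their values were seen. Comparison, lists and rules were chosen with earlier results of these data known. Alternatives covered the arrays fitted, array weights, dim genes, probe sets, scaling and left-out arrays. Promoters came from a RefSeq table (GRCm38.p6).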

Additional observations from a re-analysis of the deposited data

Results flagged for a closer look

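Of 84 genes named above, 56 had a knockdown effect that differed between axons and cell bodies by the interaction in limma (adjusted p under 0.05 over all genes). Most were named for their axonal values, which also enter the interaction, so the count is a description and is not read against all genes. Values are the axonal minus the somatodendritic log2 effect. The compartments were normalized apart, and the part of this in the difference was not tested.

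The effect was lower in axons for the 17 genes that fell there: Cpsf3 (-4.75), Fbxl17 (-4.40), Slc35e3 (-4.39), Cks1b (-4.09), Ctu2 (-3.95), Hspa13 (-3.91), Tgs1 (-3.80), Pcdhb17 (-3.72), Mto1 (-3.47), Erc2 (-3.45), Oxsr1 (-3.43), Med1 (-3.42), Chd6 (-3.29), C330007P06Rik (-3.17), Gphn (-2.50), Jagn1 (-2.45) and Dcaf12 (-1.54). It was lower too for synaptic and channel genes, namely Unc13c (-4.74), Syn3 (-3.86), Scn3b (-3.56), Dlg1 (-2.77), Napb (-2.63), Synj1 (-2.42), Scn2b (-2.28), Gria4 (-2.08) and Pclo (-1.67). Of RNA and translation genes, Srsf11 (-3.56), Eif4e (-2.78), Strap (-2.52), Eif2s3x (-2.09) and Eif3b (-1.41) were lower. So were Ube2h (-4.58), Tbk1 (-4.44), Rab2a (-3.07), Jun (-3.07), Ube2d3 (-3.03), Nefm (-2.96), Usp18 (-2.47) and Dnajb1 (-2.20).

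The effect was higher in axons for the guidance cues Slit1 (2.30), Efnb1 (2.14) and Sema3f (1.77), and for Tmem198 (2.45), Ier2 (2.42), Myh4 (2.16), S1pr2 (1.99), Col16a1 (1.99), Irf7 (1.91), Pbx2 (1.84), Mc1r (1.81), Rabl3 (1.64), Rps27 (1.59), Slc45a1 (1.58), Shank1 (1.34), Cox8a (1.19) and Snrpg (1.01). Of these, Rabl3, Mc1r, Pbx2, Myh4, Rps27, Irf7 and Shank1 were not above background on every somatodendritic knockdown array. Groups of 3 arrays were too small for a test of single outlying arrays.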

How the results depend on the processing

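The number of axonal calls depended strongly on the fit. In place of 18 it was 12 with the 6 arrays alone, 31 with quantile normalization over 18 arrays, 178 after the shift to equal medians (3 higher, 175 lower), 897 with array weights (587 higher, 310 lower) and 4483 with 18 arrays sharing 1 spread (2781 higher, 1702 lower). It was 274 among genes above background in 1 group (117 higher, 157 lower) and 371 in both (343 higher, 28 lower, and 0 of the 18 genes), where fewer genes are tested. Most calls were therefore lower in the reported fit and higher in 3 of these. With a replicate block by title number it was 0, and in the empty vector comparison the block also gave 0. Leaving out 1 array gave 0 to 116, and leaving out knockdown replicate 1 with empty vector replicate 2 (chosen after seeing the data) gave 3. All 18 genes remained called with array weights, quantile normalization, the shift, the trended fit and without knockdown replicate 2. They also remained with the filter on 1 group, which is no check of them. The genes that fell pass that filter only through the wild-type arrays and Gbp3 only through the knockdown arrays. With probe sets averaged 9 of the 18 remained. Without probe sets that may read several transcripts or genes 14 remained, and Gbp3, whose only probe set is of this kind, was not tested. The interaction count of 1946 ranged from 1377 to 3161 with 1 array left out and was within 1.5 times in the other fits. Its split of 1343 higher and 603 lower was 1041 and 945 with array weights and 798 and 697 with compartment weights.

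Genes above background on every array were 4136 (wild-type) and 1285 (knockdown) at the 99th percentile, 6206 (knockdown) at the 90th, and 4590 (wild-type) at 1 common level. Genes in all knockdown and no wild-type array were 16 at the 99th percentile and 481 at the common level, and those in all wild-type and no knockdown array 342 at the common level. Without probe sets that may read several transcripts or genes the sign turned for Rabl3 (-0.36), Pbx2 (-0.78), Rps9 (-0.70), Rps10 (-0.61) and Eif2s3x (0.19). Some axonal differences kept their sign but shrank in an alternative fit, Hspa1b to -0.50, Scn2b to -0.10, S1pr2 to 0.06, Prph to 0.05 and Ube2d3 to -0.04. The Gbp3 interaction turned to 0.11 with quantile normalization over 18 arrays. The shift to equal medians turned the sign of 8 of 36 list medians and leaving out wild-type replicate 1 that of 9. The causes were not tested. Signal over background takes the place of depth: a gene near background in wild-type axons could not be seen to fall.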

Other observations

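The measured erythroid genes were all higher on the knockdown arrays without overlap (5 of 5, median 0.81, beside 18.8% of all genes), although 4 of the 5 were above background in neither group; the empty vector median was 0.14. Trem2, a microglial receptor, read 7.83, 7.27 and 7.06 in wild-type and 10.19, 9.39 and 9.47 with the knockdown, while Csf1r, another marker of these cells, read 13.25, 7.84 and 11.32 against 10.01, 7.64 and 6.02. Of mitotic and DNA replication genes (31 measured), 26 fell in the cell bodies, where 20.4% of all genes did. Their axonal median was -0.10, and 4 of 31 were above background on every axonal knockdown array. Gapdh, read near its 3' end and near its 5' end as a measure of RNA length, differed between both ends by 2.15 to 3.27 in wild-type and 2.80 to 3.60 in knockdown axons, and these ranges overlapped.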
